A study of Arabidopsis thaliana with 4 samples.

Results

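The genes described here are the NB-ARC immune receptor genes of Arabidopsis thaliana, taken as every nuclear gene of the deposited count table whose annotation contains NB-ARC or NBS-LRR. The rule gave 141 of 27554 genes. It leaves out some known receptors whose annotation lacks these words, among them ZAR1, ADR1-L1 and ADR1-L2, so the 141 are not the whole family. Ribosome profiling, which counts the mRNA fragments shielded by translating ribosomes, was run on whole seedlings aged 6 days. WT seedlings gave 2 libraries, and line 5, a line in the WT background that constitutively overexpresses ClpD, gave the other 2. ClpD (ERD1, AT5G51070) is a Clp ATPase of the chloroplast, and the submitters report that its unimported precursor builds up in this line. Line 5 is the only overexpression line used here, so an effect of ClpD and another difference of that line cannot be told apart. The promoter that drives the transgene is not given in the sources used here. The labels do not state that replicate libraries derive from separate cultures. The p-values therefore reflect the spread of these samples alone, which may be technical. Footprint counts follow both the mRNA level and its ribosome occupancy, and the separate contributions were not measured here.

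NB-ARC proteins, also called NLRs, are receptors inside plant cells that detect pathogen effector proteins or the damage these do to host proteins. The NB-ARC domain binds a nucleotide and acts as the switch, a leucine-rich repeat region follows it, and the N-terminal domain sorts the family into a TIR class, a coiled-coil (CC) class and an RPW8-like helper class. Activated receptors signal through lipase-like proteins such as EDS1 or through the membrane protein NDR1, and too much receptor causes autoimmunity, so plants hold their levels low.

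The libraries held 27260818 to 42291527 counts. ClpD had 167 and 175 CPM (counts relative to the library total, scaled by the trimmed mean of M values, TMM) in WT and 3111 and 3301 CPM in line 5. This is a log2 fold change of 4.23 (SE 0.128, edgeR quasi-likelihood test, adjusted p = 0.00126). Of 9 root markers checked against the tissue label, 7 had at most 10 counts in every library, with IRT1 at 0 in all of them. PIN2 (EIR1) had 1 and 3 counts in WT and, higher in both libraries, 8 and 14 in line 5. The summed root markers stood at 8.17 to 10.8 CPM in WT and 4.27 to 5.00 CPM in line 5, most of it PHO1, which fell (log2 fold change -1.17, SE 0.205, edgeR, adjusted p = 0.0294). All 7 shoot markers were measured, with 22393 and 25100 CPM in WT and 19633 and 17104 CPM in line 5. The root part of the seedlings was therefore hardly visible by these markers. The lower shoot sum was carried by RBCS1A, CA1 and GAPB, none of them called, while ATML1 rose (log2 fold change 0.45, SE 0.0929, edgeR, adjusted p = 0.0386). The part of the lower PHO1 and shoot sums in the receptor results was not tested, and in bulk tissue fewer cells of a type and less RNA per cell cannot be told apart.

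Receptor footprints were few in all 4 libraries. The 141 genes together took 0.166% and 0.181% of the counts in WT and 0.187% and 0.205% in line 5. Per length, on the authors' FPKM scale, their median level over the libraries was 1.52, with 68 genes under 1, 49 from 1 to 10, and 24 at 10 or more. In total, 9 genes had no count in any library. A filter on low counts kept 96 of the 141 for testing, and the 45 left out never passed 18 counts in a library. Of the 96, 3 passed the filter only through line 5 and 1 only through WT.

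Outside the rule, ZAR1 had a mean of 107 FPKM and ADR1-L2 one of 34.3 FPKM over all 4 libraries. Among the 141 genes, the highest level by that mean belonged to AT3G44630, a TIR-class gene. It had 28.7 and 33.3 FPKM in WT and 24.3 and 26.8 FPKM in line 5. RPP13, a receptor for downy mildew, followed with 22.4 and 34.0 FPKM in WT and 26.3 and 26.3 FPKM in line 5. These ranges overlap, so the order of the top pair is not set beyond the spread of the libraries. RPP5, also a downy mildew receptor, came next with 18.5 and 18.4 FPKM in WT and 27.6 and 35.6 FPKM in line 5. Its place differs between the groups: by the line 5 mean, 31.6 FPKM, it was the highest of all members, and by the WT mean, 18.5 FPKM, AT1G61190 at 27.1 FPKM was among those above it. The other genes of the top 10, with means of 15.5 to 23.6 FPKM, were AT1G61190, the white rust receptor WRR4 (AT1G56510), RPP8, AT5G48620, AT1G58807, AT1G59124 and AT1G59218. The 10 genes held 39.1% and 38.8% of all receptor counts in WT and 33.8% and 33.6% in line 5.

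Some of these copies could not be told apart. AT1G58807 and AT1G59124 had identical counts in every library. AT1G58848 and AT1G59218 stood in a fixed ratio, with 1.5 times as many counts for AT1G59218 in all 4 libraries to within 1 count. Each pair therefore carries 1 signal that was divided between a pair of gene models, and among the 96 tested genes no other pair did so.

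Line 5 had more footprints on 14 receptor genes and fewer on 5, out of 96 tested (edgeR quasi-likelihood test, Benjamini-Hochberg adjustment over all 18737 genes tested, threshold 0.05). The higher genes make up 14.6% of those tested, where 6.72% of all genes tested were called higher, and the lower genes 5.21%, where 8.72% of all genes were called lower. With the fixed-ratio copies merged, 4 genes were lower. Both line 5 libraries lay above both WT libraries for 37 of the 96 genes, or 38.5%, against 34.7% of all genes tested, and below them for 29, or 30.2%, against 33.4%. These shares lie near those of all genes. The median log2 fold change was 0.12 for the 96 genes and 0.002 for all genes, and 54 of the 96 had a positive value. A log2 fold change of at least 1 in size was reached by 4 of the genes that rose and 1 of those that fell. The largest values among genes not called were 1.70 for AT5G46520, with counts of 76 and 23 (WT) and 134 and 387 (line 5), and -1.39 for AT5G46260 (both named after their values were seen).

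The calls depended on the libraries and the scaling. Without replicate 1 or replicate 2 of line 5, edgeR called 0 receptor genes, with 23 higher and 7 lower, and 11 higher and 6 lower, at an unadjusted p under 0.05. Calls over all genes became few in these fits too, so the missing calls are not particular to the receptors. DESeq2 was not run on those subsets. Only the WT pair then gives a spread. Its log2 CPM difference had an SD of 0.541 over the tested receptor genes, against 0.320 for the pair from line 5. Without WT replicate 1, the median log2 fold change was 0.051 for the receptor genes and 0.023 for all genes. With all libraries these medians lay further apart, at 0.12 and 0.002, and without WT replicate 2 they were 0.24 and 0.010. Receptor calls leaned more to lower without WT replicate 1, while the balance of calls over all genes hardly moved. The lean of the receptor genes to higher values thus depended on that library. Scaled by library totals alone, which moves the median log2 fold change of all genes to 0.24, the receptor calls were 25 higher and 2 lower. Over all genes, that scaling moved the calls from 1260 higher and 1633 lower to 3355 higher and 1226 lower. DESeq2 on all libraries called 17 receptor genes higher and 10 lower, including 13 of the 14 and all 5 named by edgeR. Over all genes it called 1591 higher and 2289 lower. AT1G61180, AT4G14370, AT4G36150 and RPS4 were not called without WT replicate 2, RRS1 was not called without WT replicate 1, and AT5G38340 was not called when either WT library was left out.

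**Figure D1:**
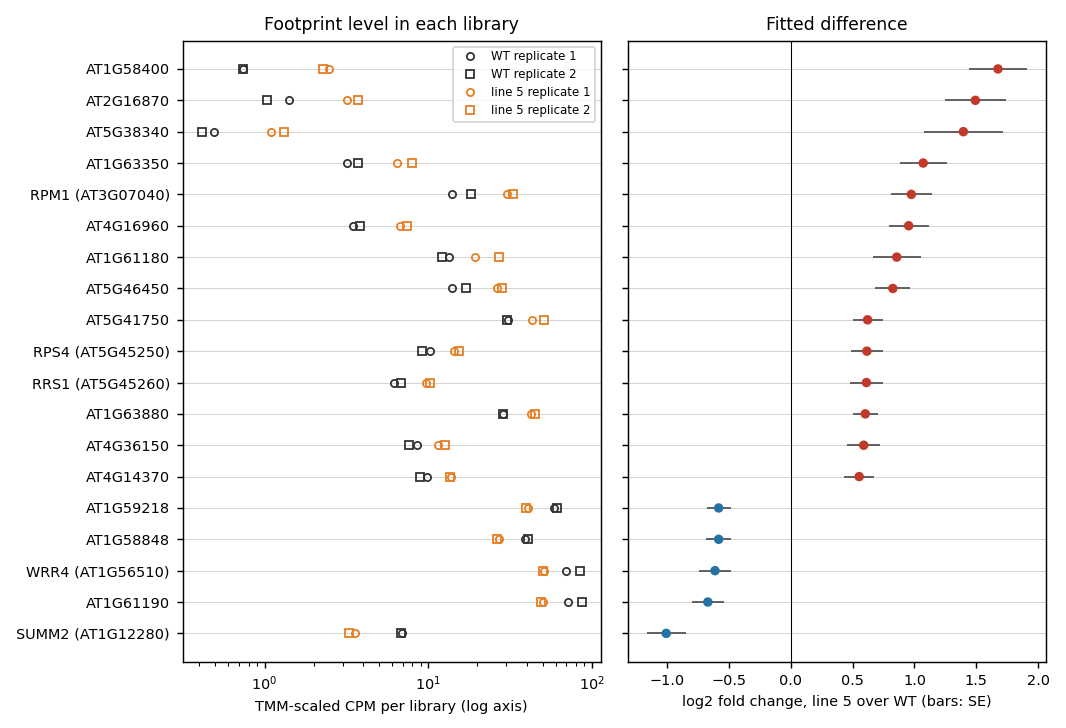
The 19 receptor genes called by edgeR, with TMM-scaled CPM in each of the 4 libraries on a log axis (left) and the fitted log2 fold change of line 5 over WT with its SE (right, red higher, blue lower). The genes were picked by their calls in these libraries, and for each the WT and line 5 libraries do not overlap. The changes run from -1.01 for SUMM2 to 1.68 for AT1G58400.

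RPM1 (AT3G07040), the best studied of the genes that rose, detects phosphorylation of the host protein RIN4 in cells attacked by Pseudomonas. It had 13.9 and 18.3 CPM in WT and 30.3 and 33.0 CPM in line 5. Both line 5 libraries were clearly above both WT libraries, a 1.97-fold increase (log2 fold change 0.97, SE 0.165, edgeR, adjusted p = 0.0281). RIN4 itself had 0.12 on that scale (SE 0.142) and was not called. The kinase RIPK, which phosphorylates RIN4, went from 76.9 and 95 CPM to 46.5 and 45.8 CPM and fell by 0.90 on the log2 scale (SE 0.133, edgeR, adjusted p = 0.0234). RPS2, a second receptor that watches RIN4, had 8.04 and 6.93 CPM in WT and 7.99 and 8.90 CPM in line 5, which overlap, and was not called (log2 fold change 0.17, SE 0.152).

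RPS4 (AT5G45250) and RRS1 (AT5G45260) lie next to each other with no gene between them and work as a receptor pair, in which RRS1 carries a WRKY domain that effectors modify. RPS4 had 10.3 and 9.12 CPM in WT and 14.3 and 15.4 CPM in line 5. RRS1 had 6.2 and 6.85 CPM in WT and 9.66 and 10.3 CPM in line 5. Both rose by about the same amount, 1.53-fold each (log2 fold changes 0.61 and 0.61, SE 0.128 and 0.137, edgeR, adjusted p = 0.0392 and 0.0455). For each count of RRS1, RPS4 had 1.66 and 1.33 in WT and, in line 5, 1.48 and 1.5, so the balance of the pair in line 5 lay within the WT range.

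SUMM2 (AT1G12280) had the largest decrease among the called genes. It guards the MAP kinase cascade of MEKK1, MKK1, MKK2 and MPK4 through the kinase CRCK3. Its level was 6.91 and 6.85 CPM in WT and 3.56 and 3.27 CPM in line 5, so that the WT libraries were 2.01-fold higher (log2 fold change -1.01, SE 0.156, edgeR, adjusted p = 0.025). None of CRCK3, MEKK1, MKK1 (MEK1), MKK2 and MPK4 was called, with log2 fold changes from -0.16 to 0.37. WRR4, the white rust receptor, fell from 69.5 and 85.2 CPM to 51.1 and 49.99 CPM (log2 fold change -0.61, SE 0.131, edgeR, adjusted p = 0.0410), and lost its call when libraries were scaled by their totals alone.

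Among the genes without a symbol, AT1G58400 (CC class) had the largest increase of the called genes, from 0.740 and 0.743 CPM (21 and 18 counts) in WT to 2.46 and 2.29 CPM (112 and 98 counts) in line 5. The groups are far apart, a 3.19-fold difference (log2 fold change 1.68, SE 0.237, edgeR, adjusted p = 0.0223). AT2G16870 (TIR class) went from 1.41 and 1.03 CPM to 3.21 and 3.71 CPM, a 2.81-fold rise. AT5G38340 (TIR class) went from 0.494 and 0.413 CPM to 1.10 and 1.31 CPM, a 2.63-fold rise that DESeq2 did not call (adjusted p = 0.0780). All of these are low-level genes whose mean was under 1 FPKM.

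AT1G63350 (CC class) was higher by 2.1-fold, at 3.17 and 3.71 CPM in WT and 6.49 and 7.96 CPM in line 5. The TIR-class gene AT4G16960 was higher by 1.94-fold, at 3.49 and 3.84 CPM in WT and 6.71 and 7.47 CPM in line 5. AT5G46450, also of the TIR class, had 13.9 and 17.0 CPM in WT and 26.2 and 28.4 CPM in line 5, a 1.77-fold increase. The TIR-class genes AT5G41750, AT1G63880, AT4G36150 and AT4G14370 rose 1.47-fold to 1.54-fold. AT1G63880 and AT5G41750 were the most abundant of the genes that rose, with means of 12.5 and 12.2 FPKM.

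Neighbouring genes moved in opposite directions at 1 place on chromosome 1. AT1G61180 and AT1G61190, which have no gene between them, are both annotated with NB-ARC and leucine-rich repeat domains and no N-terminal class. AT1G61180 had 13.4 and 12.2 CPM in WT and 19.3 and 27.0 CPM in line 5 and rose 1.81-fold (log2 fold change 0.86, SE 0.193, edgeR, adjusted p = 0.0460). AT1G61190 had 71.0 and 87.0 CPM in WT and 50.6 and 48.6 CPM in line 5 and fell (log2 fold change -0.67, SE 0.131, edgeR, adjusted p = 0.0357). AT1G61180 therefore had, for each count of AT1G61190, 0.189 and 0.140 counts in WT and 0.381 and 0.557 for line 5. The libraries of each gene already lay apart, in opposite directions, so the lack of overlap in this ratio adds no evidence. Whether reads of similar copies were divided differently between them was not tested. The fixed-ratio pair AT1G58848 and AT1G59218 (CC class) fell together, as 1 signal, by 0.58 on the log2 scale (SE 0.10 and 0.0963, edgeR, adjusted p = 0.0288 and 0.0271). By library totals alone the pair stood at -0.35 and was not called.

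**Figure D2:**
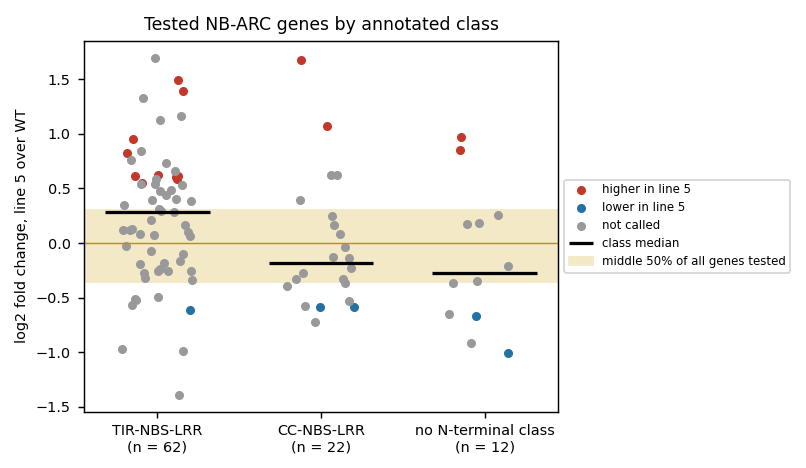
The log2 fold change of line 5 over WT for each of the 96 tested receptor genes (points), split by the class stated in the annotation, with the class median as a black line and the middle 50% of all genes tested as a band. Of the 62 TIR-class genes 10 were called higher (red) and 1 lower (blue), and the class median is 0.29 against -0.18 for the CC class.

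By class, the TIR genes were more often called higher than lower. Over all genes tested, 6.72% were called higher, 8.72% lower, and 50.2% had a positive value. The table holds 91 TIR-NBS-LRR genes, 25 CC-NBS-LRR genes and 25 whose annotation states no N-terminal class. Of 62 tested TIR genes, 10 rose and 1 fell, 41 had a positive value, and the median was 0.29 on the log2 scale. Of 22 tested CC genes, 2 rose and 2 fell, with a median of -0.18. Classes follow the annotation text, which places the helper receptors ADR1, AT5G66900 (NRG1A) and AT5G66910 (NRG1B) in the CC class. Of 12 tested genes with no class stated, 2 rose and 2 fell, with a median of -0.28, and this group includes RPM1, RPS2, RPP13 and SUMM2. The difference between classes was not tested. All 5 lower genes lay on chromosome 1, where 4 others rose and 33 were tested; of 37 tested on chromosome 5, 5 rose and 0 fell.

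Low receptor genes had more positive changes than abundant ones. The 96 genes were split into 3 level groups of 32 by their mean FPKM over all libraries. The lowest group, up to 1.89 FPKM, had a median log2 fold change of 0.43, with 23 positive values, 4 genes higher and 0 lower, where 4.71% of all genes in that range were higher and 3.65% lower. The middle group, up to 6.46 FPKM, had a median of 0.17, with 6 higher and 1 lower, against 6.19% and 5.45% of all genes. The highest group, from 6.84 to 28.2 FPKM, had a median of -0.24, with 11 positive values, 4 higher and 4 lower, against 7.89% and 9.95% of all genes. All tested genes within the same FPKM bounds had medians of 0.03 in each group. The lowest group holds the 3 genes that passed the filter only through line 5, AT2G17060, AT4G16920 and AT5G45220. Their values of 1.33, 0.28 and 0.49 are among its 23 positive ones. It also holds AT5G46260, at -1.39, the 1 gene that passed only through WT. No test was made of the trend. The median of the highest group was -0.12 without WT replicate 2, -0.18 with the fixed-ratio copies merged and -0.005 when scaled by library totals, where that of the lowest group was 0.66.

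**Figure D3:**
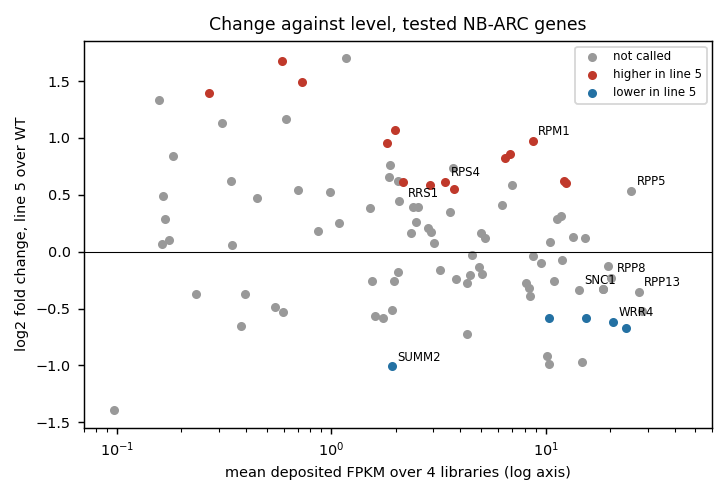
The log2 fold change of line 5 over WT against the mean deposited FPKM over the 4 libraries (log axis) for the 96 tested receptor genes, with called genes in red (higher) and blue (lower). Most points left of 1.89 FPKM lie above 0 and most right of 6.84 FPKM lie below it.

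Summed over all 141 genes, the TMM-scaled level overlapped between the groups. It was 1745 and 2040 CPM in WT and 1744 and 1869 CPM in line 5, or 1892 ± 209 CPM (SD, n = 2) and 1806 ± 88.4 CPM (SD, n = 2). A two-sided exact permutation test gave p = 0.667, and no p below 0.33 is possible with 2 libraries a group. The direction depended on the scaling and on 1 library: the log2 ratio of line 5 over WT was -0.067, but 0.18 by library totals alone, where the groups do not overlap, and 0.053 without WT replicate 2. The 14 genes that rose summed to 145 and 149 CPM in WT and 230 and 259 CPM in line 5. The 5 that fell, 1 signal of them listed under a pair of identifiers, summed to 245 and 281 CPM in WT and 173 and 168 CPM in line 5. Both sets were picked by their calls in these same libraries, so the separation of their sums follows from that choice.

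Receptor genes sit in clusters of similar copies along the chromosomes. With at most 8 other genes allowed between members, 96 of the 141, tested or not, fell into 34 clusters of up to 8 genes. Of the 19 called genes, 16 lay in clusters and 3 alone, with the fixed-ratio pair among the 16. Many clustered genes were not tested, so these counts do not show that calls gather in clusters. Calls in both directions occurred in 2 clusters, the pair AT1G61180 and AT1G61190 and the cluster from AT1G58390 to AT1G59218. In the latter, AT1G58400 rose, AT1G58848 and AT1G59218 fell, and AT1G58807 and AT1G59124, at 54.5 and 60.6 CPM in WT and 47.0 and 44.8 CPM in line 5, were not called (log2 fold change -0.33, SE 0.107).

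The cluster on chromosome 4 that holds RPP4, SNC1 and RPP5 has 8 members, of which 7 were tested and 1, AT4G16960, was called. SNC1, a TIR-class receptor whose gain of function causes autoimmunity, had 63.8 and 62.4 CPM in WT and 48.4 and 51.6 CPM in line 5. These groups do not overlap, but SNC1 was not called (log2 fold change -0.34, SE 0.0968, edgeR, adjusted p = 0.0754). RPP5 had 83.7 and 88.3 CPM in WT and 110 and 139 CPM in line 5 and was also not called (log2 fold change 0.54, SE 0.141, edgeR, adjusted p = 0.0628). RPP4 had 21.9 and 16 CPM in WT and 22.4 and 34.7 CPM in line 5, where replicate 2 stood alone (log2 fold change 0.59, SE 0.265, not called). AT4G16940 had 0.635 and 0.701 CPM in WT and 1.45 and 1.47 CPM in line 5 and just missed the threshold (log2 fold change 1.13, SE 0.268, edgeR, adjusted p = 0.0513; named after its values were seen).

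**Figure D4:**
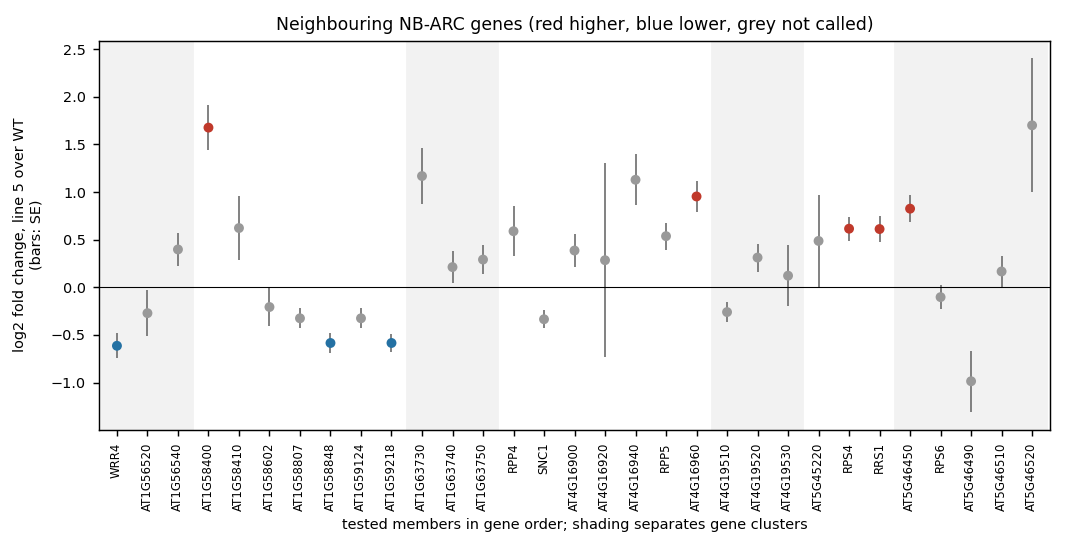
The log2 fold change of line 5 over WT with its SE for receptor genes in the 7 clusters with at least 3 tested members, in gene order, with shading to separate clusters (red higher, blue lower, grey not called). The cluster of RPP4, SNC1 and RPP5 has 6 of 7 values above 0, where 50.2% of all genes tested are positive. Of the 6, AT4G16920 at 0.28 (SE 1.02) passed the filter on low counts only through line 5. AT1G58400 stands at 1.68 in a cluster whose AT1G58848 and AT1G59218 are at -0.58.

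Of the other receptors with known roles, none was called with all libraries. RPS6, a receptor for a Pseudomonas effector, had a log2 fold change of -0.10 (SE 0.123). RPP1 had -0.07 (SE 0.116), RPP8 -0.23 (SE 0.105) and RPP13 -0.35 (SE 0.237), all of them downy mildew receptors. RPP13 had the widest WT pair of these and was called lower, at -0.66, when WT replicate 1 was left out. CSA1, which works with the neighbouring receptor gene CHS3, had 0.35 (SE 0.116), and LAZ5, which takes part in lesion-mimic cell death, 0.41 (SE 0.104, edgeR, adjusted p = 0.0595). LOV1, which confers sensitivity to the fungal toxin victorin, had 1 to 6 counts per library and RLM1, a blackleg resistance gene, 0 to 2. Neither was tested.

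ADR1 (AT1G33560), a helper receptor that passes on the signal of sensor receptors, had 18.2 and 24.1 CPM in WT and 21.4 and 19.8 CPM in line 5, with line 5 inside the WT range (log2 fold change -0.03, SE 0.167). AT5G66900 (NRG1A), also a helper though annotated as CC class, had 23.3 and 26.4 CPM in WT and 25 and 27.9 CPM in line 5 (log2 fold change 0.09, SE 0.125). Its neighbour AT5G66910 (NRG1B), likewise a helper, had 5.04 and 5.12 CPM in WT and 6.75 and 6.56 CPM in line 5, without overlap. It was not called (log2 fold change 0.39, SE 0.143, edgeR, adjusted p = 0.123). Of 3 other TIR-class genes on the list of named genes, AT4G19510 had -0.26 (SE 0.106), AT4G12010 0.66 (SE 0.214) and AT1G17600 -0.49 (SE 0.415), none of them called with all libraries. AT1G17600 was called lower, at -0.97, without WT replicate 1.

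The genes that act with the receptors moved both ways. Of 44 listed genes for signalling, chaperones, guarded host proteins, restraint of receptor levels and immune output, 39 were tested, 5 rose and 5 fell, which is 12.8% in each direction against 6.72% higher and 8.72% lower over all genes. Scaled by library totals alone, 17 rose, without WT replicate 2, 9 rose, and without either line 5 library edgeR called 0 in either direction, with 7 higher and 6 lower, and 7 higher and 5 lower, at an unadjusted p under 0.05. Calls over all genes shifted as well: 3355 were higher with library totals alone, against 1260 with TMM, and few were called without a line 5 library. The median log2 fold change of the listed genes was 0.25.

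In the signalling group, SAG101 and NDR1 were called in opposite directions. SAG101 (AT5G14930), a lipase-like partner of EDS1, had 15.2 and 16.1 CPM in WT and 45.4 and 48.6 CPM in line 5, a 3.0-fold rise (log2 fold change 1.59, SE 0.109, edgeR, adjusted p = 0.00938). EDS1 had 55.7 and 61.3 CPM in WT and 46.1 and 39.6 CPM in line 5 and was not called (log2 fold change -0.45, SE 0.123, edgeR, adjusted p = 0.0679). PAD4, the other partner of EDS1, had 3.74 and 5.86 CPM in WT and 7.02 and 8.43 CPM in line 5 and was not called (log2 fold change 0.69, SE 0.256). NDR1 (AT3G20600), on which several CC-class receptors depend, went from 18.2 and 16.9 CPM to 10.1 and 10.5 CPM and fell by 0.76 on the log2 scale (SE 0.114, edgeR, adjusted p = 0.0235).

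The chaperone group had 4 of 7 genes higher and 0 lower, where 6.72% of all genes tested were called higher and 8.72% lower. It holds 4 of the 5 partner genes called higher. The chaperones of this group fold receptors into a form that can be activated. SGT1A (AT4G23570), a co-chaperone of HSP90, had 60.1 and 83.3 CPM in WT and 143 and 130 CPM in line 5, a 1.91-fold rise (log2 fold change 0.93, SE 0.180, edgeR, adjusted p = 0.0349). SGT1B, the copy with the larger known role in receptor function, had 87.5 and 82.1 CPM in WT and 97.2 and 105 CPM in line 5 and was not called (log2 fold change 0.25, SE 0.101). RAR1 (PBS2), which joins SGT1 to HSP90, had 0.26 on that scale (SE 0.130) and was not called. HSP90.1 rose 10.6-fold, HSP81-2 (HSP90.2) 2.23-fold and Hsp81.4 (HSP90.4) 1.51-fold, while HSP81-3 had a log2 fold change of 0.81 and was not called.

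Among the 9 genes that restrain receptors, CPR1 and SRFR1 fell, where 8.72% of all genes tested were called lower. CPR1 (AT4G12560), an F-box protein that targets SNC1 and RPS2 for breakdown, had 15.4 and 19.1 CPM in WT and 9.77 and 9.46 CPM in line 5 (log2 fold change -0.84, SE 0.147, edgeR, adjusted p = 0.0294). SRFR1 (AT4G37460) had 64.3 and 71.5 CPM in WT and 43.9 and 37.7 CPM in line 5 (log2 fold change -0.73, SE 0.125, edgeR, adjusted p = 0.0285). In both genes each line 5 library was below each WT library. The other 7 genes of this group were not called; AT1G14200, annotated as a RING/U-box protein, had the largest SE, with 8.81 and 12.9 CPM in WT and 36.1 and 16.4 CPM in line 5 (log2 fold change 1.28, SE 0.417).

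None of the 7 tested immune output genes was called higher and 1 was called lower, where 6.72% and 8.72% of all genes tested were. In a list of 7 genes, 0 higher lies near that share. Isochorismate synthase 1 (EDS16, AT1G74710), the main source of salicylic acid, had 26.4 and 22.4 CPM in WT and 13.7 and 11.9 CPM in line 5 and fell by 0.94 on the log2 scale (SE 0.144, edgeR, adjusted p = 0.0249). The other 6 tested output genes were not called, among them PR5 at -0.09 (SE 0.168), NPR1 at 0.30 (SE 0.131) and the activator CBP60G at 0.43 (SE 0.135). The defence marker PR1 and the systemic resistance gene FMO1 had 0 counts in every library, which allows up to 0.0660 to 0.124 CPM by counting error alone. PR2 (BGL2) was not tested, with 1 count in each WT library and 5 and 29 counts in those of line 5.

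**Figure D5:**
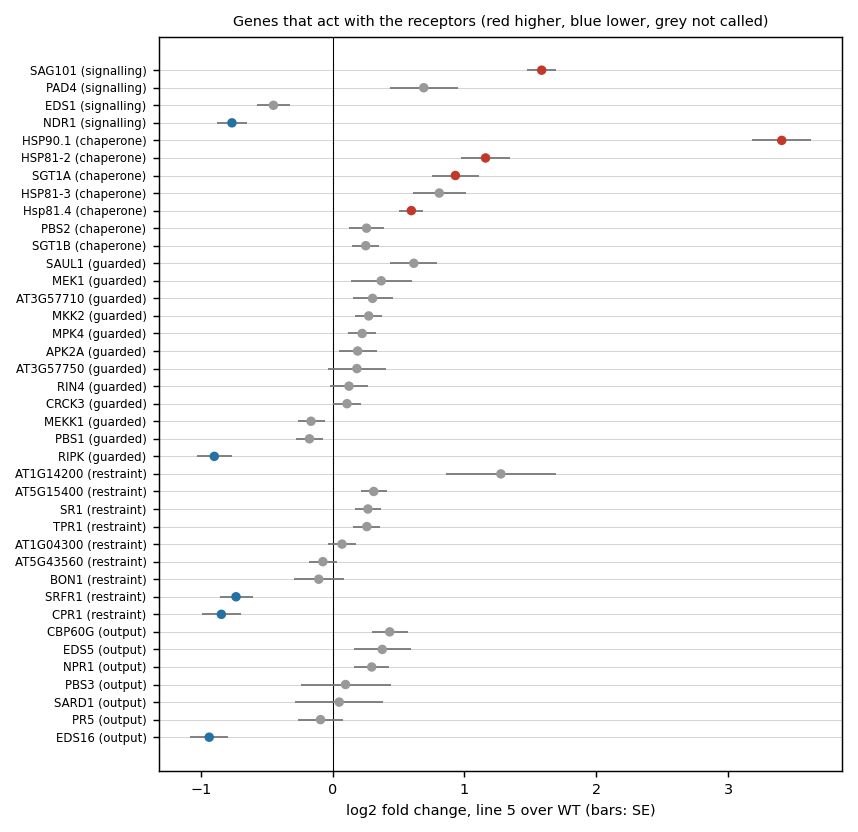
The log2 fold change of line 5 over WT with its SE for the 39 tested genes that act with the receptors, grouped by role (red higher, blue lower, grey not called). HSP90.1 stands at 3.41 and SAG101 at 1.59, while RIPK, CPR1, SRFR1, NDR1 and EDS16 lie between -0.73 and -0.94.

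The log2 fold change in the authors' deposited table is the ratio of mean FPKM values, while the test and scaling behind its FDR are not given in the sources used. At its FDR under 0.05, a threshold chosen here, the authors' deposited table lists 13 of the 141 receptor genes higher, 10 of them edgeR calls too. It lists 9 lower, 5 of them edgeR calls too. The share of all genes listed at that FDR was not computed here, so these counts cannot be compared with it. In the authors' deposited table RPM1 stands at 1.22 and SUMM2 at -0.73 (log2 fold change). The TMM-scaled fit gave 0.97 and -1.01, and the fit with library totals alone gave -0.77 for SUMM2, so the scales differ. The authors' deposited table lists RPP5 as higher (0.77) and AT3G44630 as lower (-0.28), both of which edgeR did not call.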

How the data were processed

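Footprint counts of 2 WT and 2 line 5 libraries came from 1 deposited table. Per the submitters' processing notes the authors used fastp, Bowtie2, STAR, RSEM and DESeq2 on build TAIR10; their versions, roles, strand setting and counted feature are unknown here. Per the file headers each gene has deposited counts and FPKM for every library, group means of FPKM, and the authors' log2 fold change with its p-value and FDR. RSEM estimates counts, so whole numbers may be rounded. A further 5 rows with no gene identifier (0.0145% to 0.0340% of counts) were left out.

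Genes kept by filterByExpr (minimum count 10) were tested with edgeR 4.0.16 in R 4.3.3: TMM, quasi-likelihood fit on group, two-sided, Benjamini-Hochberg. SE is the fold change divided by the square root of F. DESeq2 1.42.0, other scalings and filters, each library left out and a replicate block were alternatives. On simulated counts with 18704 genes tested, 63 of 99 changes of 1 and 100 of 100 of 2 (log2) were recovered. Names and gene order came from RefSeq TAIR10.1, in which all 141 members matched; no coordinates are printed because that build differs in name. Counting error alone underlies floors of 3 counts. The members and lists were chosen with earlier results of these data known. Named genes are all called members, receptors and helpers of known role, the 10 highest by FPKM and called partners. Other partners and uncalled genes were named for their role, or after their values were seen. One receptor of known role is not reported here by name, but is kept in the counts.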

Additional observations from a re-analysis of the deposited data

How the results depend on the processing

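Directions of the 19 called receptor genes were the same under all alternatives run, while calls were not. Receptor genes called higher numbered 14, and 0 to 16 with a library left out, 25 with library totals alone and 1 with the replicate block. Those called lower numbered 5, and 0 to 20 with a library left out, 10 with DESeq2, 2 with library totals alone and 0 with the replicate block (22 higher and 13 lower at an unadjusted p under 0.05). Partner genes called higher numbered 5, and 0 to 9 with a library left out, 17 with library totals alone and 2 with the replicate block. Those called lower numbered 5, and 0 to 6 with a library left out and 1 with the replicate block. The median log2 fold change of the tested receptor genes, 0.12, ran from 0.051 to 0.24 with a library left out and was 0.37 with library totals alone and 0.19 with no filter. The log2 ratio of their summed level, -0.067, ran from -0.18 to 0.053 with a library left out, turning positive without WT replicate 2, and was 0.18 with library totals alone. Genes not called with all libraries changed sign as follows. With library totals alone, AT5G46470 (RPS6) stood at 0.13, AT3G44480 (RPP1) at 0.16, AT5G43470 (RPP8) at 0.0099, AT1G33560 (ADR1) at 0.21 and AT5G48620 at 0.11. With a library left out, AT5G46470 ran from -0.20 to 0.0072, AT3G44480 from -0.17 to 0.021, AT3G46530 (RPP13) from -0.66 to 0.045, AT1G17600 from -0.97 to 0.20, AT1G33560 from -0.23 to 0.19 and AT5G66900 from -0.0012 to 0.18. Over all genes, 1260 were called higher and 1633 lower, and with the replicate block 286 and 457. Without a line 5 library, few of all genes were called. Library totals alone moved the share of all calls that were higher from 43.6% to 73.2%. Elsewhere the cause was not tested. The labels give replicate numbers only and do not state whether same-numbered libraries were handled together. Deviations of same-numbered libraries correlated at -0.117 over all genes and -0.410 over the tested receptor genes. A crossed pairing, chosen after seeing the data, called 15 receptor genes higher and 9 lower. In simulated counts at this depth, 63 of 99 changes of 1 on the log2 scale were recovered, and smaller changes were not simulated.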
